A study of Drosophila melanogaster with 15 samples.

Results

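The second exposure of flies to ethanol vapor was set against the first, with 5 arrays of each among the 15 arrays of the study. The flies were whole animals, males as the study describes them, of the isogenic Canton-S B strain, 3 to 5 days old. Flies of the second exposure had been intoxicated once, had recovered for 2 h on standard food and were passed through the inebriometer again, and those that fell out of the column at 7 to 10 minutes were frozen. Flies of the first exposure were frozen as soon as they fell out at 3 to 5 minutes, and control flies, 5 arrays that are printed here as levels only, were never exposed. Each array read a pool of 30 flies. The exposures therefore also differed in the time of day, in 2 h of feeding, in the minutes spent in vapor and in which flies were kept by their elution time, and these cannot be told apart. The arrays were chosen by their titles (tolerance and acute_response), and every one of the 10 was used, with the 13809 of 18769 probe sets whose Signal averaged 20 or more across the 15. Signal is the brightness that the array software gives to a probe set, the oligonucleotides that read a transcript or several related ones.

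An intoxicated fly loses postural control, and a fly that has met ethanol before stands the vapor longer, which is called tolerance. Flies oxidize ethanol through acetaldehyde to acetate, which feeds fatty acid synthesis, and clear other compounds with cytochrome P450s, glutathione S-transferases and UDP-glycosyltransferases. The circadian clock is a feedback loop in which Clk and cyc activate per and tim and the proteins of per and tim repress them, so that both transcripts rise and fall over the day.

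Some arrays stood apart. The array of the second exposure with replicate number 5 held transcripts of yolk and eggshell, which females make. Yp1, a yolk protein, had a Signal of 2521 there, against 5.7 to 72.9 on the other 4 arrays of the second exposure and 4.1 to 19.1 after the first. The vitelline membrane gene Vm34Ca had 997, against 4.5 to 72.9 on those 4 arrays and 5.3 to 16.5 after the first. Summed over 8 ovary and yolk genes measured, the Signal reached 7689 on this array, with a median of 715 over the 5 arrays of the second exposure, and lay between 515 and 644 after the first. Its part in the results was not tested, and counts without it are given. A second difference ran across both exposures. The first component of the residuals, 20.2% of their variance, put replicates 4 and 5 of the second exposure and replicates 2, 4 and 5 of the first on one side. The flight muscle gene fln followed it, with 2114, 3478, 5752, 17887 and 12262 on the arrays of the second exposure and 3955, 10834, 1166, 11171 and 9973 after the first.

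**Figure D1:**
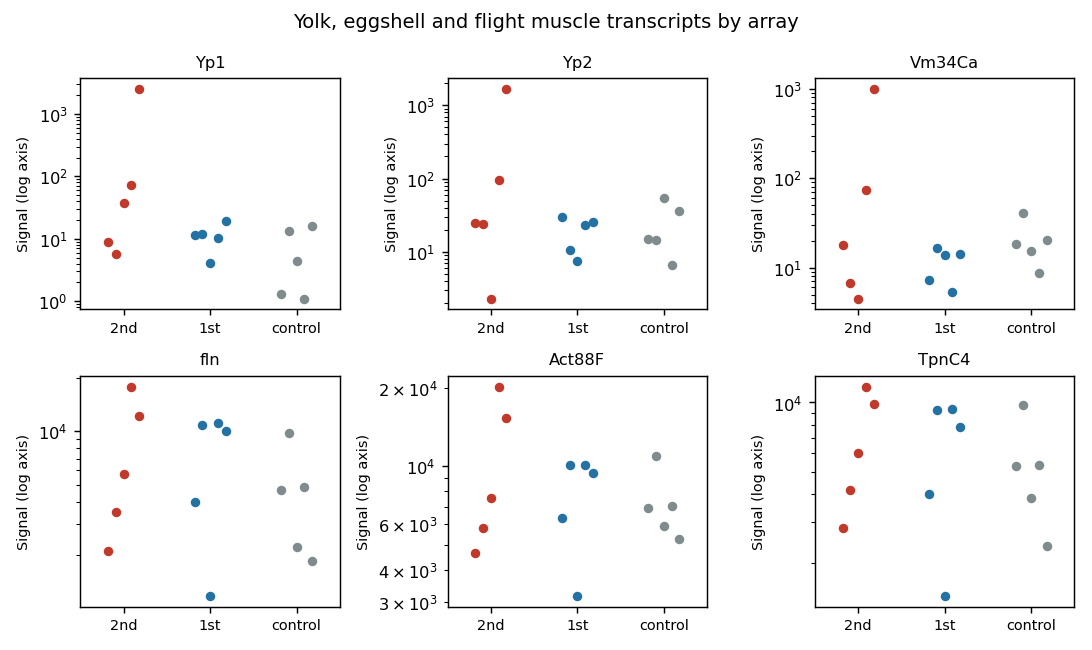
Signal on a log axis of 3 yolk or eggshell genes (Yp1, Yp2, Vm34Ca) and 3 flight muscle genes (fln, Act88F, TpnC4), each point 1 array, for the second exposure, the first exposure and control, with replicates 1 to 5 from left to right. The last array of the second exposure is high for the yolk and eggshell genes (Yp1 2521), and fln spreads between 1166 and 17887 within the exposures.

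Of the 13809 probe sets, 235 differed between the exposures (1.7%; limma, Benjamini-Hochberg adjusted p under 0.05), 170 higher after the second exposure (1.23%) and 65 lower (0.471%). The median change of the called probe sets was 0.58 on the log2 scale among those that rose and -0.56 among those that fell, and 23 rose and 11 fell by more than 2-fold. At an unadjusted p under 0.05 there were 2169 probe sets. The arrays of the exposures did not overlap for 227 of the 235, against 4.87% of all probe sets tested. The 235 were chosen by p on these same arrays, which largely fixes this outcome, so it is a description. The split between higher and lower depended on the scaling of the arrays: quantile normalization gave 89 higher and 62 lower, and equal array medians gave 75 higher and 64 lower. Without replicate 5 of the second exposure 85 were called, 54 higher and 31 lower, and without replicate 4 of the first 61 were called, 42 higher and 19 lower. Leaving out any 1 array turned the direction of none of the 235, which could not happen for the 227 whose arrays did not overlap. Of the 235, 54 were called each time, 35 higher and 19 lower. Read by the brightest probe set of each gene, 177 of 10779 genes differed (1.64%), 119 higher (1.1%) and 58 lower (0.538%). At an unadjusted p under 0.05, 10.2% of genes were higher and 4.72% lower, and the arrays of the exposures did not overlap for 4.9%. In whole flies, more cells of a type and more RNA per cell cannot be told apart.

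**Figure D2:**
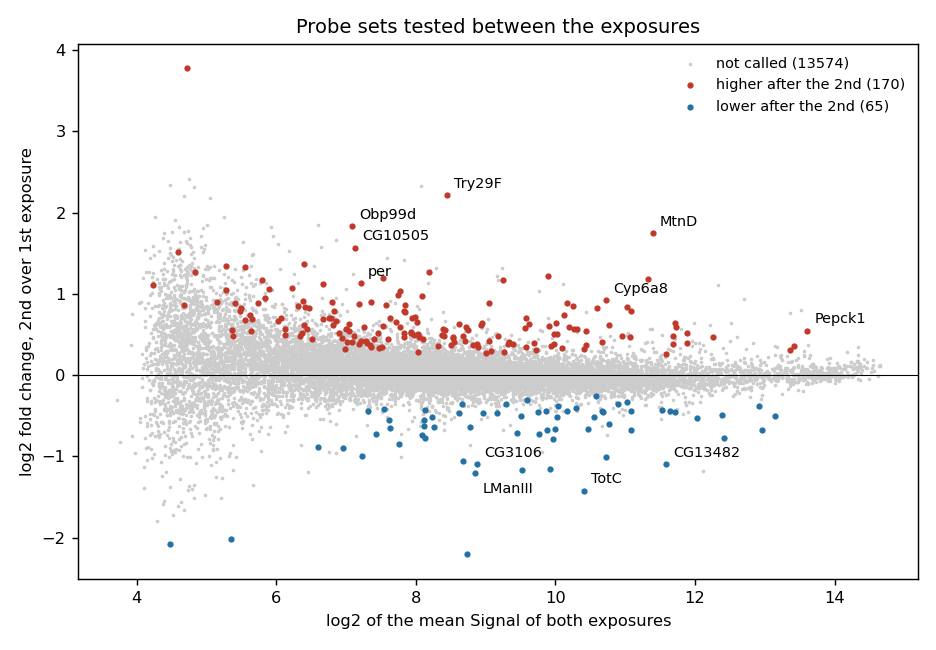
Log2 fold change of the second over the first exposure (vertical) against the log2 mean Signal of both (horizontal) for the 13809 probe sets tested, with the 170 called higher in red and the 65 called lower in blue. Most called changes lie within 1 log2 unit of 0, and Try29F, Obp99d and MtnD lead the rises of brighter probe sets.

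The control arrays had no part in the test. For 142 of the 170 probe sets that rose (83.5%) the mean of the control arrays lay nearer the first exposure, as for 53.7% of all probe sets with a higher mean after the second. For 48 of the 65 that fell (73.8%) it lay nearer the first exposure too, against 60.9% of all with a lower mean. The other 28 that rose and 17 that fell had control levels nearer the second exposure. Since the second exposure enters both sides of this reading, it is a description.

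The largest rise of a named gene was that of Try29F, a trypsin-like serine protease. Its Signal was 485, 623, 720, 567 and 472 after the second exposure, against 120, 122, 141, 86.8 and 151 after the first and 86.2 to 138 in control flies. All 5 arrays of the second exposure were more than 3 times as bright as the brightest of the first, a rise of 2.21 on the log2 scale (standard error 0.17, adjusted p = 0.000924). Obp99d, an odorant-binding protein, had 175, 220, 210, 242 and 210 after the second exposure, against 72.4, 48.0, 41.7, 73.5 and 67.8 after the first and 26.2 to 96.0 in control flies (1.83, standard error 0.17, adjusted p = 0.00201). MtnD, a metallothionein that binds metal ions, had 2859, 2975, 5491, 4229 and 5350 after the second exposure, against 1381, 1184, 1029, 1079 and 1348 after the first and 745 to 1004 in control flies (1.75, standard error 0.20, adjusted p = 0.00489). Replicates 1 and 2 of the second exposure were the low ones for MtnD and still lay above all others of the first. These 3 genes were called whichever array was left out, and MtnD lost its call with analysis of variance on linear Signal (adjusted p = 0.0517).

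The 15 largest rises included 2 transporters and 3 enzymes from detoxification families. GstZ2, a glutathione S-transferase, was among the 15 largest falls. The counts were not set against the size of these classes among all genes, so no direction is read from them. CG10505, an ABC transporter, averaged 207 ± 26.1 after the second exposure and 72.1 ± 20.4 after the first (SD, n = 5 each). CG17752, which resembles organic cation transporters, averaged 691 ± 64.3 after the second exposure and 373 ± 17.3 after the first. Cyp6a8, a cytochrome P450, had 2526, 2294, 1818, 2262 and 2181 after the second exposure, against 1098, 1240, 1084, 1211 and 1198 after the first and 1051 to 1408 in control flies. Its first exposure and control arrays overlapped, while every array of the second lay above both (0.92, standard error 0.09, adjusted p = 0.00224). The P450 Cyp4e3 rose to 109 ± 11.97, against 58.4 ± 11.5 after the first exposure, and lost its call without 3 of the 10 arrays, replicate 5 of the second exposure among them (adjusted p = 0.0536). The glucuronosyltransferase-like Ugt37A2 rose to 358.5 ± 48.0, against 186 ± 45.9 after the first exposure, a call that held in 4 of 10 fits that left out 1 array (highest adjusted p = 0.0668, without replicate 4 of the first exposure).

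The other large rises had varied roles. Nmdmc, a dehydrogenase of folate metabolism, averaged 1324 ± 343 after the second exposure, 569 ± 155 after the first and 376 ± 118 in control flies (1.22, adjusted p = 0.0358), and was called in 3 of 10 fits that left out 1 array. Alp2, an alkaline phosphatase, averaged 1497 ± 236 after the second exposure and 808 ± 108 after the first. Duox, the dual oxidase that makes hydrogen peroxide at epithelia, had 155, 127, 111, 164 and 143 after the second exposure, against 68.1, 85.1, 54.0, 57.4 and 58.4 after the first and 83.2 to 141 in control flies. Its control arrays overlapped those of both exposures, and the first exposure had the lowest mean of the 3 treatments (1.12, standard error 0.15, adjusted p = 0.00875). Lsp2, a storage protein of the fat body, averaged 410 ± 70.4 after the second exposure, 174 ± 50.02 after the first and 367 ± 286 in control flies, with control arrays from 139 to 840. Sid, a stress-induced DNase, averaged 286 ± 78.7 after the second exposure and 143 ± 29.7 after the first, and CG14893, with 255 ± 17.3 after the second exposure and 113 ± 21.4 after the first, completed the 15 with per. Sid was called in 1 and Lsp2 in 4 of the 10 fits that left out 1 array (highest adjusted p = 0.108 and 0.0632), and CG14893 and Alp2 in all.

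**Figure D3:**
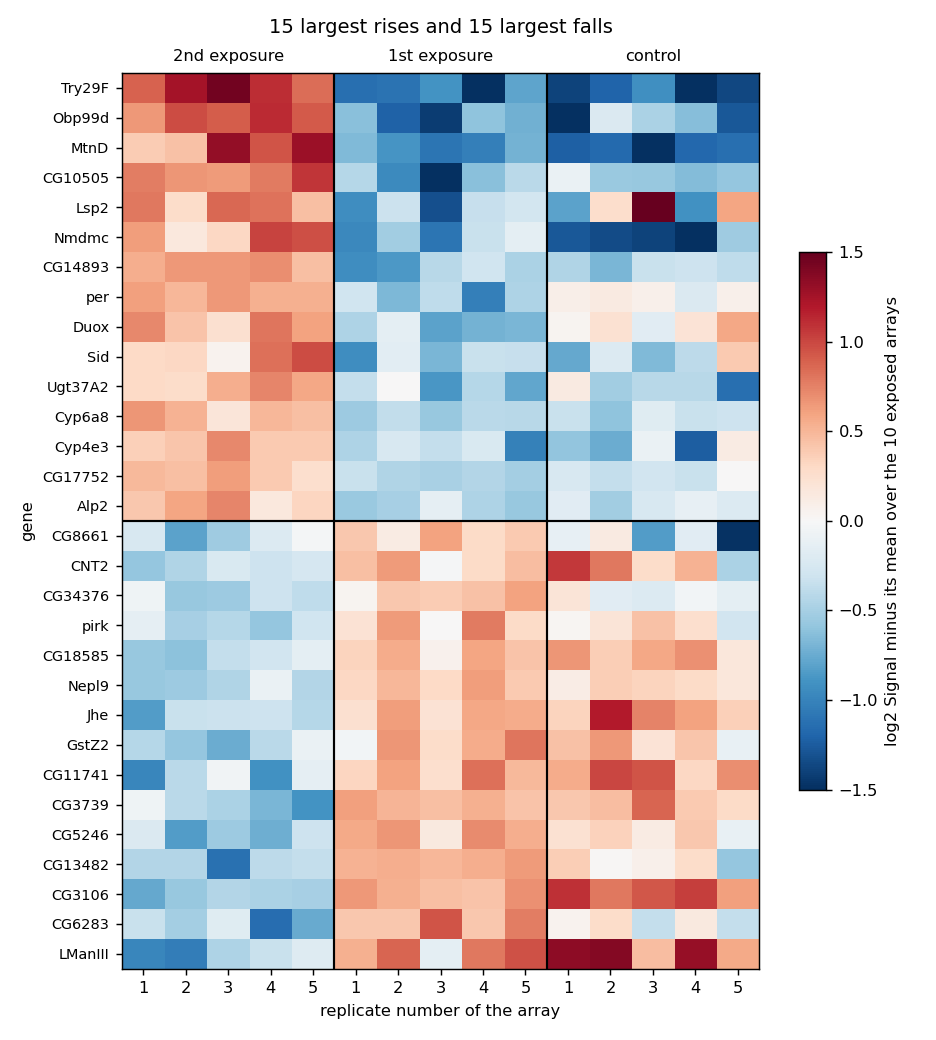
Log2 Signal on each array minus the mean of the 10 exposed arrays for the 15 genes with the largest rises (upper block) and the 15 with the largest falls (lower block), colours ending at 1.5 in both directions. Columns are replicates 1 to 5 of the second exposure, the first exposure and control; Duox and Lsp2 in the upper block and CG6283, CG13482, CG34376 and CG8661 in the lower one have control levels nearer the second exposure.

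CG3106 led the falls in adjusted p. The 15 largest falls included 4 peptidases, while the protease Try29F led the rises. The count was not set against the share of peptidases among all genes. CG3106 had 256, 295, 323, 314 and 309 after the second exposure, against 687, 631, 599, 589 and 701 after the first and 668 to 931 in control flies. Every array of the second exposure lay below every other array, and the fall was 1.10 on the log2 scale (standard error 0.08, adjusted p = 0.000924). Of the peptidases, CG3739, a serine peptidase, fell to 1140 ± 253, against 2256 ± 116 after the first exposure (adjusted p = 0.0106). CG5246, a serine protease, fell to 268 ± 48.6, against 553 ± 77.9 after the first (adjusted p = 0.0111), and Nepl9, a neprilysin-like metallopeptidase, to 155 ± 21.97, against 277 ± 27.6 after the first (adjusted p = 0.00719). The carboxypeptidase CG18585 fell to 729 ± 99.1, against 1263 ± 176 after the first (adjusted p = 0.0188). These peptidases were called whichever array was left out, apart from CG18585, which lost its call without replicate 2 or 4 of the first exposure (highest adjusted p = 0.0569).

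A lipase, a hormone esterase and a mannosidase were also among the 15. CG6283, a lipase, had 530, 469, 590, 303 and 398 after the second exposure, against 886, 883, 1286, 884 and 1141 after the first and 521 to 812 in control flies. It lost its call without replicate 4 of the first exposure or 5 of the second (highest adjusted p = 0.0578). The mean of control flies lay between the exposures for it, as for CG13482, which averaged 1978 ± 378 after the second exposure, 4163 ± 148 after the first and 2972 ± 677 in control flies. Jhe, the juvenile hormone esterase, fell to 68.1 ± 9.61, against 126 ± 17.1 after the first exposure and 147 ± 38.6 in control flies (adjusted p = 0.0125), and was called whichever array was left out. LManIII, a lysosomal alpha-mannosidase, fell to 278 ± 70.8, against 644 ± 170 after the first exposure and 859 ± 250 in control flies (adjusted p = 0.0423). Its call held in 1 of the 10 fits that left out 1 array, with adjusted p up to 0.104. The remaining 6 were CG11741, GstZ2, pirk, CG34376, CNT2 and CG8661, whose falls ran from 0.72 to 0.99 on the log2 scale. None of these 6 was called in more than 4 of the 10 fits, and CG8661 in none, with an adjusted p of up to 0.101. CG34376 has another probe set that did not pass the test (0.12, adjusted p = 0.594).

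The exposures were sampled 2 h apart, and of 11 clock genes 1 passed the test, per. Its Signal was 210, 193, 215, 198 and 199 after the second exposure, against 111, 85.7, 105, 67.4 and 99.6 after the first and 118 to 150 in control flies. The 3 treatments did not overlap, with control flies between the exposures, and per rose by 1.13 on the log2 scale over the first exposure (standard error 0.13, adjusted p = 0.00489). The partner gene tim is read by 2 probe sets. The brighter had 1694, 1724, 1393, 1586 and 1108 after the second exposure, against 1027, 1040, 1037, 1072 and 972 after the first and 1178 to 1436 in control flies. It did not pass the test (0.53, standard error 0.12, adjusted p = 0.0596), though its arrays did not overlap, and it passed without replicate 5 of the second exposure (adjusted p = 0.0157). The dimmer probe set of tim passed with 373, 288, 263, 317 and 238 after the second exposure, against 139, 168, 112, 146 and 153 after the first (1.04, standard error 0.14, adjusted p = 0.0106).

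The other clock genes did not pass. Pdp1 and vri, transcription factors of the second feedback loop, had log2 fold changes of 0.35 and 0.25 (adjusted p = 0.0747 and 0.221), and jet, which acts in light input, 0.38 (adjusted p = 0.0786). The photoreceptor cry had -0.18 (adjusted p = 0.255). The activators Clk and cyc had 0.03 and 0.01. Over the 11 genes the median was 0.14, against 0.017 over all genes tested, and 10 of 11 were above 0, as were 5812 of the 10779 genes. With quantile normalization or equal array medians the median of all genes was -0.02. Of 7 clock output genes, 1 rose, Usp8, a ubiquitin-specific protease (427 ± 43.8 after the second exposure and 310 ± 30.02 after the first, adjusted p = 0.0441), and it lost its call whichever array was left out (highest adjusted p = 0.103).

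**Figure D4:**
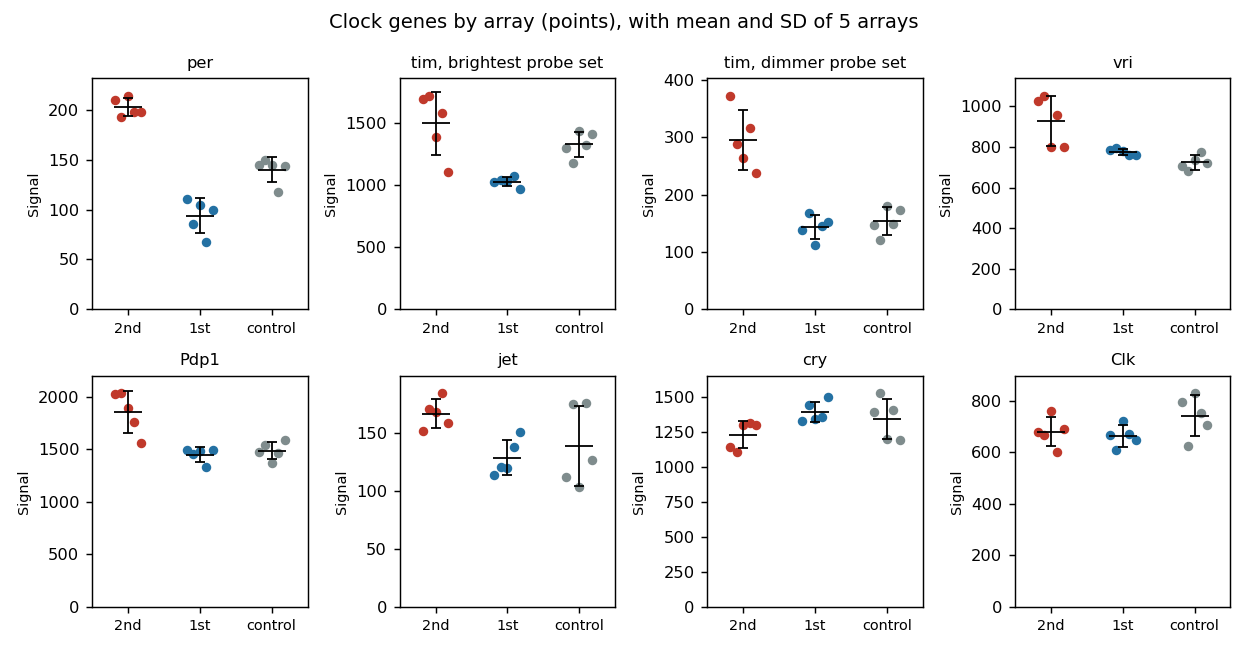
Signal of 7 clock genes by array (points), with the mean and SD of 5 arrays (bars), for the second exposure, the first exposure and control; tim has 2 panels, 1 per probe set. The second exposure lies above the first for per, both probe sets of tim, Pdp1, jet and vri, of which per and the dimmer tim probe set passed the test.

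None of 11 genes of ethanol and acetate metabolism passed (limma; median -0.04; 1 at an unadjusted p under 0.05). The closest was Men, the malic enzyme that supplies NADPH, with 7704, 7178, 7962, 9495 and 9074 after the second exposure, against 5962, 6374, 5818, 6563 and 6746 after the first (0.39, adjusted p = 0.0647). None of 19 genes known from mutants that alter ethanol sensitivity or from cAMP signaling passed either (median 0.06; 5 at an unadjusted p under 0.05). Of 73 cytochrome P450s 3 rose, Cyp6a8, Cyp4e3 and Cyp309a1, and 1 fell, Cyp12a4 (1846 ± 118 after the second exposure and 2316 ± 125 after the first), with a median of -0.02. Cyp309a1 averaged 510 ± 62.2 after the second exposure, 346 ± 32.5 after the first and 260 ± 67.9 in control flies, and it and Cyp12a4 were each called in 1 of 10 fits that left out 1 array. Of 32 glutathione S-transferases GstE5 rose (287 ± 11.2 after the second exposure and 235 ± 7.33 after the first) and GstZ2 fell (86.0 ± 14.7 after the second exposure and 162 ± 35.3 after the first), and the sign of the list's median, 0.03, turned with equal array medians. Of 31 UDP-glycosyltransferases 1 rose. GstZ2, a maleylacetoacetate isomerase, acts in the breakdown of tyrosine. GstE5 and GstZ2 were called in 1 and 2 of the 10 fits.

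None of the stress gene lists held more than 1 call. Of all genes 1.64% were called, and in lists this short 0 or 1 call is not read as a result. Of 9 heat shock proteins and cochaperones 1 rose, l(2)efl, a small heat shock protein related to alpha-crystallin. Its brightest probe set averaged 12374 ± 352 after the second exposure, 9620 ± 460 after the first and 9738 ± 1155 in control flies (0.36, standard error 0.05, adjusted p = 0.0154), and lost its call without replicate 4 of the first exposure (adjusted p = 0.0556). A dimmer probe set of the gene rose by 0.51 (adjusted p = 0.00728). Hsp68, Hsp26 and DnaJ-1 differed by 0.22, 0.11 and 0.11 and did not pass. None of 12 genes of endoplasmic reticulum stress and none of 9 activity-regulated early genes passed, and 3 of each list were at an unadjusted p under 0.05. Of 18 metallothionein and redox defence genes MtnD alone passed. TotC, a secreted Turandot protein of the stress response, had 641, 1316, 474, 755 and 612 after the second exposure, against 1209, 2198, 1991, 2185 and 2199 after the first and 523 to 1751 in control flies. It fell by 1.42 on the log2 scale (standard error 0.27, adjusted p = 0.0376), the exposures overlapped by 1 array each, and it was called in 2 of 10 fits that left out 1 array (highest adjusted p = 0.0946, without replicate 4 of the first exposure).

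Metabolic genes of hunger and storage changed in both directions. Of 21 fasting- and FOXO-responsive genes 2 rose and 1 fell, with a median of -0.14. ImpL2, a secreted protein that binds insulin-like peptides, had 2860, 2813, 2928, 2709 and 2840 after the second exposure, against 3988, 3821, 3598, 3838 and 4157 after the first and 3558 to 3758 in control flies. The exposures did not overlap, and ImpL2 fell by 0.45 (standard error 0.06, adjusted p = 0.00719). It was called whichever array was left out, but not with replicate number as a block. Pepck1, the gluconeogenic phosphoenolpyruvate carboxykinase, averaged 14800 ± 1421 after the second exposure, 10176 ± 1381 after the first and 7447 ± 1712 in control flies, and sug, a transcription factor of the sugar response, 1641 ± 199 after the second exposure, 1123 ± 126 after the first and 918 ± 83.9 in control flies. Both rose by 0.55 (adjusted p = 0.0452 and 0.039), and Pepck1 was called in 0 and sug in 1 of 10 fits that left out 1 array (highest adjusted p = 0.113 and 0.0919, both without replicate 5 of the second exposure). Of 13 folate and one-carbon genes Nmdmc alone passed, and Shmt, serine hydroxymethyltransferase, had a log2 fold change of 0.52 with an adjusted p of 0.0503. Gbs-70E, a subunit that directs a phosphatase to glycogen, rose by 0.47 (5677 ± 385 after the second exposure and 4093 ± 372 after the first, adjusted p = 0.0235; called in 5 of 10 fits that left out 1 array, highest adjusted p = 0.0642).

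Lipid and digestive genes that passed are given singly, and no direction is read from them. Of all genes 1.1% were called higher and 0.538% lower. Of 18 genes of fatty acid synthesis and activation bgm, a very long chain acyl-CoA synthetase, fell (1232 ± 148 after the second exposure and 1767 ± 205 after the first, adjusted p = 0.046; called in 0 of 10 fits that left out 1 array). Of 15 genes listed for lipid transport and storage Acbp5, an acyl-CoA-binding protein, and CG8562 fell. LpR1, of the same list, had a dimmer probe set that rose (0.90, adjusted p = 0.0417), while its brightest did not pass. Acbp5 had 6821, 6417, 6929, 6426 and 6846 after the second exposure, against 9268, 8830, 8601, 8504 and 8326 after the first (-0.38, adjusted p = 0.0125). CG8562 is a zinc carboxypeptidase and not a lipid protein, with 1265, 1022, 1029, 1048 and 1122 after the second exposure, against 1719, 1699, 1774, 1667 and 1822 after the first (-0.67, adjusted p = 0.00388). Among 10 gut trypsins Try29F rose and zetaTry fell, with 774, 803, 810, 778 and 789 after the second exposure, against 1093, 1128, 981, 1129 and 1062 after the first (-0.45, adjusted p = 0.00728). Neither any of 13 Jonah proteases nor any of 11 maltases and amylases passed (medians -0.14 and -0.04), with 2 and 3 at an unadjusted p under 0.05, all lower. Of 30 lysosomal and autophagy genes LManIII alone fell.

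Of the immune genes, Spn27A, a serpin that restrains the melanization cascade, rose to 901, 972, 944, 975 and 935 after the second exposure, against 634, 542, 595, 593 and 542 after the first and 384 to 578 in control flies (0.70, standard error 0.06, adjusted p = 0.00152). It was the 1 of 27 serpins to pass, and was called whichever array was left out. The negative regulator of the Imd pathway, pirk, fell (205 ± 25.5 after the second exposure and 355 ± 77.4 after the first, adjusted p = 0.0391; called in 1 of 10 fits). None of 10 antimicrobial peptides passed, and none was at an unadjusted p under 0.05. Haemocyte markers summed to 2873 to 3222 after the second exposure and 2777 to 3666 after the first.

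Chromatin and transcription genes held several calls. Of 14 histone deacetylases, sirtuins and corepressors 3 rose and 1 fell, against 1.1% of all genes higher and 0.538% lower. HDAC1, CoRest and Sirt1 are also among genes that the study picked on these arrays, so this count is not independent evidence. HDAC1, the deacetylase also called Rpd3, had 291, 253, 270, 319 and 325 after the second exposure, against 164, 176, 163, 159 and 187 after the first and 143 to 182 in control flies. All 5 arrays of the second exposure exceeded all others (0.78, standard error 0.09, adjusted p = 0.00454). CoRest, a corepressor that works with HDAC1, had 600, 552, 627, 607 and 618 after the second exposure, against 377, 409, 413, 366 and 357 after the first (0.65, standard error 0.07, adjusted p = 0.00267). Its 2 dimmer probe sets, averaging 58.1 and 27.2 after the second exposure, did not pass (log2 fold changes 0.70 and -0.22). Single arrays of theirs were as low as 7.1 and 2.8. The mean of its 3 probe sets did not pass either. Smr, another corepressor, averaged 672 ± 22.1 after the second exposure and 553 ± 33.3 after the first (0.28, adjusted p = 0.0469) and lost its call whichever array was left out. The NAD-dependent deacetylase Sirt1 fell by 0.51 (604 ± 70.8 after the second exposure and 855 ± 33.6 after the first, adjusted p = 0.0235; called in 5 of 10 fits). In a list of 11 genes compiled here from those the study names, mostly transcription regulators, 4 rose and 1 fell (HDAC1, CoRest, elB, Gbs-70E, Sirt1). The study picked them on these arrays, so the list is not independent evidence of its direction, and Gbs-70E is a glycogen gene that does not belong among transcription regulators. The zinc finger gene elB rose by 0.51 (adjusted p = 0.0352). It was called in 2 of 10 fits that left out 1 array (highest adjusted p = 0.0865). Its sign turned when its probe sets were averaged. Of these, 1 dim probe set averaged 17.3 after the second exposure, with an array at 1.8, and 33.7 after the first.

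Of 41 measured chemoreceptors of 186 listed, Ir25a, a coreceptor of ionotropic receptors, rose, with 58.4, 39.5, 60.7, 59.4 and 57.7 after the second exposure, against 26.9, 27.4, 28.9, 28.7 and 36.7 after the first and 37.3 to 77.1 in control flies. Its control arrays overlapped those of the second exposure and not those of the first (0.88, adjusted p = 0.0172; called in 8 of 10 fits). Of 36 odorant-binding proteins Obp99d alone passed. Of 20 potassium channels Task6 rose (59.0 ± 5.91 after the second exposure and 40.6 ± 5.65 after the first, adjusted p = 0.041; called in 1 of 10 fits), with a list median of 0.19. The synaptic vesicle gene nSyb (430 ± 39.0 after the second exposure and 309 ± 24.5 after the first, adjusted p = 0.0294) and the neuronal RNA-binding gene fne (674 ± 55.2 after the second exposure and 484 ± 54.0 after the first, adjusted p = 0.0377) rose, 2 of 12 nervous system markers, and were called in 3 and 0 of the 10 fits. The summed Signal of those 12 was 9416 to 11701 after the second exposure and 9000 to 10418 after the first. Of 15 eye genes trpl, a channel of the photoreceptor, rose (3723 ± 241 after the second exposure and 2853 ± 251 after the first, adjusted p = 0.0421; called in 2 of 10 fits that left out 1 array, highest adjusted p = 0.103), and the 15 summed to 43790 to 47490 after the second exposure, above the 40604 to 43740 after the first. In control flies the 15 summed to 42294 to 56350, which overlapped both exposures. None of 27 genes of neurotransmitter receptors and synthesis passed (3 at an unadjusted p under 0.05).

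No member of the lists of 17 flight muscle, 26 accessory gland, 33 testis, 9 haemocyte, 34 cytosolic ribosomal, 69 mitochondrial ribosomal, 73 oxidative phosphorylation, 26 proteasome, 25 ribosome biogenesis, 16 aminoacyl-tRNA synthetase and 11 glycolytic genes passed the test. All 17 flight muscle genes had a log2 fold change above 0 (median 0.20, with 8 at an unadjusted p under 0.05, against 10.2% of all genes tested that were higher at that p), and their Signal summed to 147082 to 214397 after the second exposure and 127435 to 154243 after the first. Their part in the other results was not tested. Of 6 fat body markers measured, Lsp2 and Cyp4e3 rose, as given above, with a list median of 0.64 and a summed Signal of 20986 to 26164 after the second exposure and 22394 to 24078 after the first; Yp1, high on replicate 5 of the second exposure, is one of the 6. Testis markers summed to 145497 to 170276 after the second exposure and 148073 to 184933 after the first. Single markers were as low as 2.4 on an exposed array in the testis list, 2.3 in the ovary and yolk list and 4.1 in the fat body list. The ratio of the 3' to the 5' probe set of GAPDH, a sign of RNA integrity, had a median of 2.34 after the second exposure and 2.56 after the first. The same ratio was 1.71 after the second exposure and 1.82 after the first for actin, and 3.31 after the second exposure and 3.02 after the first for eIF-4a, with overlapping ranges for all 3.

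**Figure D5:**
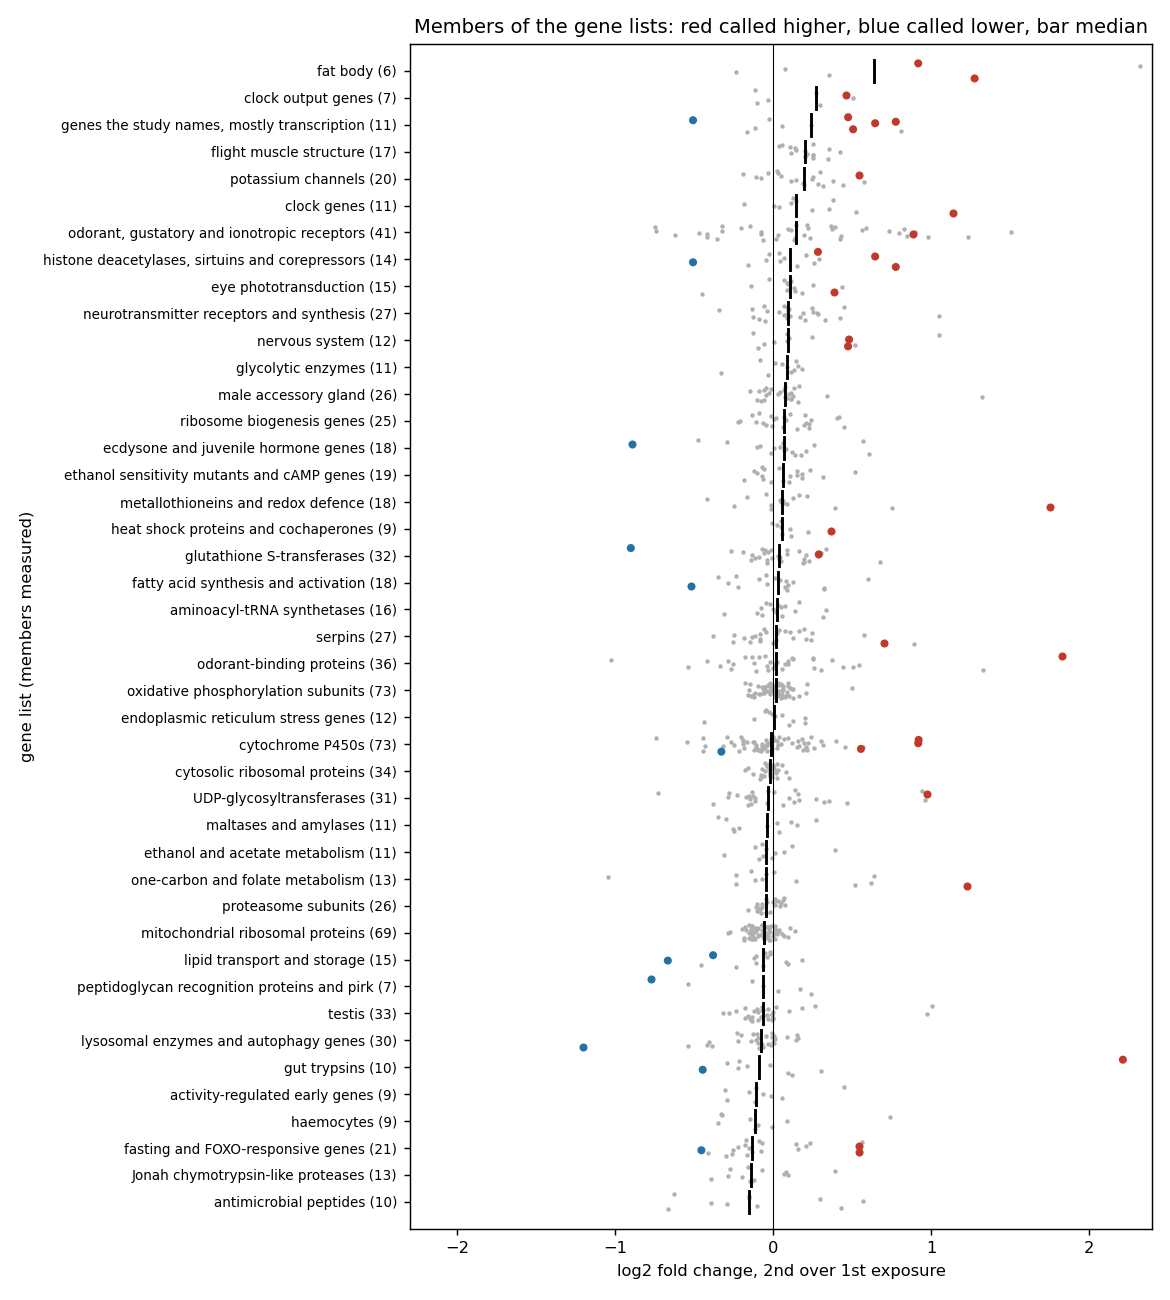
Log2 fold change of the second over the first exposure for each measured member of the described gene lists (points), sorted by the list median (black bar), with the ovary and yolk list left out. Members called higher are red and those called lower blue; 24 of 44 lists hold at least 1 called member, and most medians lie within 0.2 of 0.

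Among the called probe sets 22 had no gene name in the annotation used here and 5 matched several genes. Of the 235 called probe sets 31 were not the brightest of their gene, such as the dimmer one of tim.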

How the data were processed

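Each array (Affymetrix Drosophila GeneChip 2.0, total RNA) gave 1 deposited Signal intensity per probe set, which the authors computed with Microarray Suite 5.0 from 14 pairs of perfect-match and mismatch probes and scaled linearly. The mean after trimming was 500 on each array. Precision is limited by having 5 arrays a group. Of 18952 probe sets 183 controls were left out. Values under 1 were set to 1 (4 among those tested). Median Signal was 138.8 to 142.1 after the second exposure, 130.1 to 132.8 after the first and 136.0 to 139.3 in control. Probe sets with mean Signal of at least 20 entered a fit of log2(Signal) in limma 3.58.1 (R 4.3.3; lmFit, eBayes, Benjamini-Hochberg at 0.05), second minus first exposure. Symbols came from the platform annotation updated through RefSeq (13647 of 18769 with 1 gene, 402 several, 4720 none). Tables were made with pandas 2.3.3 and numpy 2.4.6 in Python 3.11.15, and plots with matplotlib 3.10.9. A gene with several probe sets is read by the brightest.

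Named are the 15 largest rises and 15 largest falls among called probe sets with 1 symbol, arrays that do not overlap and mean Signal of at least 100 in the higher group, up to 6 called members of each list, and per and tim. Members, lists and rules were chosen with earlier results of these data known. The 44 lists are described by counts and medians, with no set test. The authors' methods take the 3 treatments of each replicate out of shared starting groups, but arrays are numbered 1 to 5 within a treatment with no statement that equal numbers share flies. The authors describe 5 independent replicates per treatment, but not whether their flies came from separate cultures. The p-values therefore measure the spread between these pools, in which biological and technical variation cannot be told apart. On simulated data the fit recovered 38% of 50 probe sets set to differ by 0.5 log2 units. It recovered 84% at 1, 92% at 2 and 98% at 3, and called 10 of 13609 left unchanged. The simulated noise was independent between probe sets, whereas the real residuals share a component. These shares may therefore not hold for the real arrays. Detection calls were not used here. The alternatives were quantile normalization, equal array medians, log2(Signal + 50), no filter, a minimum of 70, replicate number as a block and all 15 arrays. Further ones were eBayes trend, arrayWeights, Storey q-values, analysis of variance on linear Signal and probe sets averaged per gene. Each array was also left out, and 3 settings treated arrays that stood apart. The analysis of variance used linear Signal like the authors, but only the 10 exposed arrays, with the filter and adjustment used here. The authors fitted all 3 treatments, left out probe sets with Absent calls and used q-values.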

Additional observations from a re-analysis of the deposited data

Results flagged for a closer look

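Of 122 groups of 5 arrays checked, 11 held an array whose gap to its neighbour on the log2 scale exceeded 0.71 of the group's range. The values below are linear Signal. In independent, normally distributed groups such a gap occurs in about 1 in 20. The groups checked share arrays and are mostly of genes chosen on these data, so the 11 are not read against that share. After the second exposure CG13482 was 1306.9 on replicate 3 (others 2094 to 2212), Cyp309a1 402.8 on replicate 2 (others 516 to 559), Ir25a 39.5 on replicate 2 (others 57.7 to 60.7) and Jhe 51.4 on replicate 1 (others 68.5 to 74.1), each low for its group. High on 1 array of the second exposure were Cyp4e3 with 130.1 on replicate 3 (others 101 to 106), Nepl9 with 193 on replicate 4 (others 139 to 152) and Yp3 with 1660.8 on replicate 5 (others 72.3 to 147). After the first exposure Alp2 had 997.7 on replicate 3 (others 738 to 790) and Ir25a 36.7 on replicate 5 (others 26.9 to 28.9), both high. Pepck1 had 7828.4 on replicate 3 (others 10331 to 11457) and TotC 1209 on replicate 1 (others 1991 to 2199), both low. Replicate 5 of the second exposure is the array with yolk transcripts.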

How the results depend on the processing

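The counts depended on the settings. Against 235 called, 170 higher and 65 lower, the counts (called, higher, lower) were 151, 89 and 62 with quantile normalization, 139, 75 and 64 with equal array medians, 325, 228 and 97 with log2(Signal + 50), 83, 53 and 30 with no filter (18769 tested), 352, 250 and 102 with a minimum of 70 (11072 tested), 243, 154 and 89 with all 15 arrays, 349, 230 and 119 with eBayes trend, 295, 197 and 98 with arrayWeights, 310, 226 and 84 with Storey q-values, 180, 118 and 62 with analysis of variance on linear Signal and 201, 142 and 59 with probe sets averaged per gene (10779 genes tested). With 1 array left out they ranged over 61 to 168, 42 to 125 and 19 to 43. Without replicates 4 and 5 of the second exposure together they were 40, 24 and 16, with the first residual component as covariate 589, 388 and 201, and with replicates 2 and 4 of the first exposure averaged 66, 45 and 21. With the replicate block, 56 were called, 45 higher and 11 lower. Between arrays that bear the same number the residual correlation was -0.073 to 0.076 (median 0.018, 5 pairs), within the range of arrays with different numbers (-0.163 to 0.138, 20 pairs), and whether equal numbers share flies is not known. Of 55 called named genes the block kept the call of 18 and no filter that of 28. MtnD had an adjusted p of 0.0504 with the block. Duox, CG5246, ImpL2, Acbp5 and zetaTry also lost their calls with the block, though they were called whichever single array was left out. The direction of elB turned to -0.26 (adjusted p = 0.687) with the mean of its probe sets, and no other named gene changed direction under any setting. For the directions this was largely fixed in advance. The filters, the block, all 15 arrays, eBayes trend and Storey q-values leave the fold change of a probe set as it is. Apart from TotC, the named genes had arrays of the exposures that did not overlap. Scaling moved the median of all probe sets by less than 0.1. The cause of the differences in count was not tested. Probe sets under a Signal of 20 were 22.3% to 25.6% of an array after the second exposure and 25.1% to 27.2% after the first, and their ratios are imprecise.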

Other observations

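Several genes had a single probe set that passed the test while a brighter one did not. IA-2 had a dimmer probe set with 122 after the second exposure and 46.6 after the first (log2 fold change 1.36, adjusted p = 0.023) and a brightest one with 2812 after the second exposure and 3321 after the first (-0.25, adjusted p = 0.464). LpR1, a lipophorin receptor, had a dimmer one with 213 after the second exposure and 114 after the first (0.90, adjusted p = 0.0417) and a brightest one with 1985 after the second exposure and 1862 after the first (0.09, adjusted p = 0.718). For nuf the dimmer one gave 145 after the second exposure and 77.3 after the first (0.90, adjusted p = 0.0217) and the brightest 2354 after the second exposure and 2278 after the first (0.05, adjusted p = 0.792). These genes were picked after their values were seen.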
